A study of Mus musculus with 6 samples.

Results

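The RhoA-driven contractile ring, the septins and the ESCRT proteins that cut the last bridge between daughter cells were described through 10 genes: Rhoa, Rock1, Diaph1, Diaph3, Myh9, Myh10, Sept7, Sept9, Chmp4b and Tsg101. A gene was taken from the probe sets whose platform annotation names that symbol alone, with Septin7 and Septin9 counted as Sept7 and Sept9. All 10 had such a probe set, 13 probe sets in all, out of 19938 named genes and 35512 probe sets on the array. The samples were GFP-positive cells, which the labels call replicating, and GFP-negative cells, which they call quiescent, sorted by fluorescence from perfused livers of weaned CyclinB1-GFP transgenic mice aged 3.5 weeks. All mice carried the reporter, whose promoter is not given in the sources used here, and the labels give no other genotype or treatment. Each group held 3 Affymetrix arrays labelled as biological replicates, and the design text names 3 individual mice. Microarray intensities are given on the log2 scale, with mean ± SD of the n = 3 arrays in a group. A difference is the GFP-positive mean minus the GFP-negative mean, with its limma SE, and was called at a Benjamini-Hochberg adjusted p below 0.05 over all 19938 genes.

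As background, cytokinesis begins when the GTPase RhoA is switched on at the cell equator. RhoA turns on formins, which polymerise straight actin filaments, and the kinase ROCK, which activates non-muscle myosin II, so that a ring of actin and myosin pulls the membrane inward. Septin filaments scaffold the ring and the bridge that remains, and ESCRT-III filaments, recruited through proteins such as TSG101, sever that bridge. In the growing rodent liver, hepatocytes often leave out or fail cytokinesis around weaning and become binucleate. Apart from cytokinesis, most of these proteins also serve cell shape, adhesion, membrane traffic or endosomal sorting in cells that do not divide.

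Diaph3 and Myh10 were higher in GFP-positive cells, and the other 8 genes were not called in either direction. Of the 10 genes, 2 were called higher and none lower, against a background of 1.55% of all genes called higher and 0.115% called lower. The median difference over the 10 genes was 0.20, beside -0.03 over all genes, and 0.10 without GFP-positive 3 and 0.13 without GFP-negative 2. The 8 genes that were not called had differences between -0.11 and 0.39, with a median of 0.18. In bulk RNA of sorted cells, more cells with a transcript and more of it per cell cannot be told apart. The groups did not overlap in 4 of the 10 genes, with GFP-positive arrays above in each (Diaph3, Myh10, Rock1 and Sept7), as they did in this direction in 6.82% of all genes. In none of the 10 did all GFP-positive arrays lie below, as in 6.98% of all genes.

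The promoters of both called genes are shown, with that of Myh9, the relative of Myh10 that was not called. Whether the called genes share regulation was not tested. They are the 250 bases before the transcription start in the RefSeq-derived table of assembly GRCm38.p6, written 5′ to 3′ on the gene's strand, with the letters CCAAT, or ATTGG where it lies on the other strand, in capitals. For Diaph3 the start used lies 23 bases inside the gene's span in that assembly's gene table, so distances refer to 1 of its annotated starts. CCAAT is the element bound by the factor NF-Y.
Diaph3, chr14:87141225-87141474, minus strand: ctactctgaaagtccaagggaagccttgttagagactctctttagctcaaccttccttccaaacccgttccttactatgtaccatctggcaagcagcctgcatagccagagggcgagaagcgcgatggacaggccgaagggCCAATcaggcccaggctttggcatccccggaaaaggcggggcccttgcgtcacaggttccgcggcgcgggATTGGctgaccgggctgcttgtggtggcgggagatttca
Myh10, chr11:68691665-68691914, plus strand: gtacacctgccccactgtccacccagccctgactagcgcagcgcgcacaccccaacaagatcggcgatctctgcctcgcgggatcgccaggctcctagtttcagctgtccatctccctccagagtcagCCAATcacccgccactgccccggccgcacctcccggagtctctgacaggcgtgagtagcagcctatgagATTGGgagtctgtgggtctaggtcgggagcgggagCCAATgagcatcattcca
Myh9, chr15:77842176-77842425, minus strand: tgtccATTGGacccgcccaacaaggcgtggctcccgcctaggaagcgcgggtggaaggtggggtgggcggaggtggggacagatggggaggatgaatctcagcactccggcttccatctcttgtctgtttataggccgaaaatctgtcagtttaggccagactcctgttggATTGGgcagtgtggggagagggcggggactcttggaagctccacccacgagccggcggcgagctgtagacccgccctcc

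The Diaph3 window held 2 CCAAT boxes, beginning 109 and 39 bases before the start, the Myh10 window 3, beginning 122, 53 and 18 bases before it, and the Myh9 window 2, beginning 245 and 79 bases before it. Of 32851 windows of this length, 33.8% held at least 1 CCAAT and 10.1% at least 2. Windows of 8 of the 10 genes were searched, 13 windows in all, of which 4 held a CCAAT, the fourth being a window of Sept9. Rock1 and Diaph1, both on chromosome 18, were not searched, so the formin relative of Diaph3 has no window here. The cell cycle homology region, an element of many mitotic promoters, was searched in 2 spellings, like the other motifs on both strands. Its spelling TTTGAA lay in 1 window, of Sept7, beginning 35 bases before the start, beside 5252 of the 32851 windows. The spelling TTCGAA lay in no window of these genes, beside 1.34% of all windows. An E2F site written TTTNGCGC (1.13% of all windows) and the CArG box of serum response factor (1.47%) lay in none of the 13. In 19 windows of 16 dedicated cytokinesis regulators, a list described further on, CCAAT lay in 11 and TTTGAA in 7. The E2F site lay in 2 of these 19 windows, the CArG box in 1 and TTCGAA in none. These are matches of letters in a window of fixed length and were not tested against the differences.

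Rhoa encodes the GTPase at the head of the pathway. Its log2 intensity was 10.07, 9.97 and 10.19 in GFP-positive arrays 1, 2 and 3, against 9.98, 10.06 and 10.17 in GFP-negative arrays 1, 2 and 3. The groups overlapped almost completely. The difference was 0.01 ± 0.14 (limma, adjusted p = 0.996), with a 95% interval of -0.30 to 0.31, so that a change of more than 1.24-fold either way lay outside it. A further Rhoa probe set gave -0.10 ± 0.14 when all probe sets were tested alone (limma, adjusted p = 0.92).

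Rock1 encodes a kinase activated by RhoA that phosphorylates the myosin light chain and its phosphatase. Its log2 intensity was 8.71, 8.96 and 8.95 in GFP-positive arrays, against 8.23, 8.60 and 8.61 in GFP-negative arrays. The lowest GFP-positive array lay above the highest GFP-negative one, and each GFP-positive array was above the GFP-negative array of its number by 0.33 to 0.49. The difference of 0.39 ± 0.16 nevertheless missed the threshold (95% interval 0.04 to 0.75, unadjusted p = 0.034, limma adjusted p = 0.49), and 8.8% of all genes had an unadjusted p below 0.05. Its adjusted p lay between 0.27 and 0.86 over 15 alternative settings.

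The formins Diaph1 and Diaph3, which encode mDia1 and mDia2, nucleate unbranched actin filaments, and mDia2 is the one known for building the ring in mouse cells. Diaph3 stood at 6.32, 6.33 and 6.45 in GFP-positive arrays, against 4.15, 4.34 and 4.26 in GFP-negative arrays. The groups lay about as far apart in each pair of arrays with the same number, at 2.18, 1.98 and 2.19. Its means were 6.37 ± 0.07 in GFP-positive cells and 4.25 ± 0.10 in GFP-negative cells, which puts the measured difference at 2.12 ± 0.13 (95% interval 1.82 to 2.42, limma adjusted p = 1.6e-05). All its GFP-negative values lay under the medians of their arrays, which ran from 4.60 to 4.74 over the 6 arrays. The fold is therefore given as a bound: at least 3.26-fold higher. Every value below the median of its array was set to that median first, and the bound holds for this floor only. Such a bound allows for low values only and carries no sampling error. With 16 added to the intensities before log2 instead, the log2 difference of Diaph3 was 1.49.

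Diaph1 stood at 6.68, 6.71 and 6.85 in GFP-positive arrays, against 6.75, 6.44 and 6.51 in GFP-negative arrays. GFP-negative array 1 lay within the GFP-positive range, so the groups overlapped. The difference was 0.18 ± 0.14 (95% interval -0.14 to 0.50, limma adjusted p = 0.85), so that it could be as large as 1.42-fold within the interval.

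Myh9 and Myh10 encode the heavy chains of non-muscle myosin IIA and IIB, the motors of the ring. Myh10 stood at 6.53, 6.60 and 6.67 in GFP-positive arrays, against 5.16, 5.63 and 5.40 in GFP-negative arrays. The GFP-positive arrays lay close together, at 6.60 ± 0.07, and the GFP-negative ones were more spread, at 5.40 ± 0.24, without reaching them. Myh10 was 2.30-fold higher (log2 difference 1.20 ± 0.16, 95% interval 0.85 to 1.55, limma adjusted p = 0.0025).

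Myh9 stood at 6.42, 6.08 and 6.57 in GFP-positive arrays, against 6.01, 6.12 and 6.42 in GFP-negative arrays. Array 2 was the lowest of its group in GFP-positive cells but not in GFP-negative cells, and the groups overlapped. The difference was 0.17 ± 0.18 (95% interval -0.22 to 0.57, limma adjusted p = 0.89). A further, dimmer Myh9 probe set stood at 4.05, 3.59 and 4.83 in GFP-positive and 3.43, 3.54 and 3.34 in GFP-negative arrays. It was mostly below the array medians and its difference of 0.72 ± 0.27 was not called (limma over all probe sets, adjusted p = 0.45). Myh14, the third non-muscle heavy chain, was at -0.22 ± 0.16 (limma adjusted p = 0.82).

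**Figure D1:**
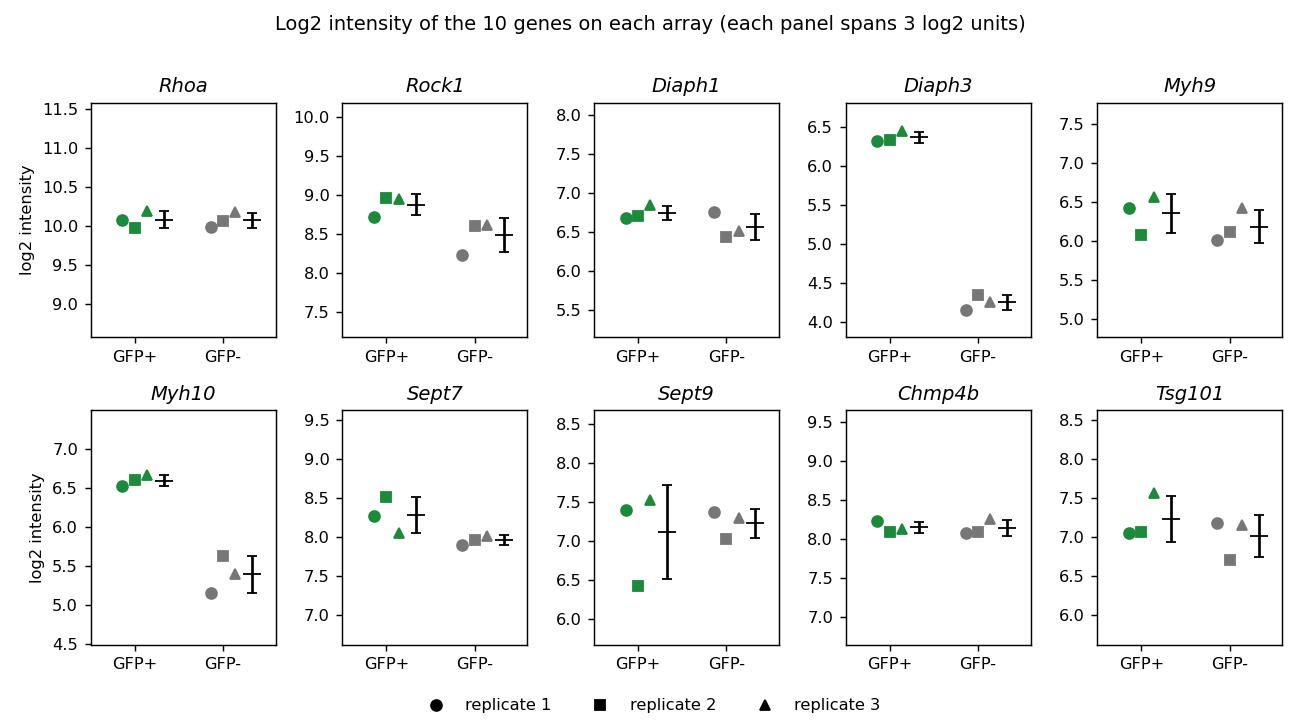
Log2 intensity (vertical axes) of each of the 10 genes in GFP-positive (green, left) and GFP-negative (grey, right) arrays, with symbols for replicate numbers and bars for mean ± SD of 3 arrays. The panels share 1 length of axis but not its position. Diaph3 and Myh10 show wide gaps between groups, at 6.37 against 4.25 and 6.60 against 5.40, Rock1 and Sept7 narrow ones, and Sept9 has 1 low GFP-positive array at 6.43.

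Sept7 encodes a core subunit that septin filaments share, and Sept9 encodes the subunit known from human cell lines to be needed for abscission. Sept7 stood at 8.27, 8.51 and 8.05 in GFP-positive arrays, against 7.90, 7.96 and 8.01 in GFP-negative arrays. All GFP-positive arrays were above all GFP-negative ones, but GFP-positive array 3, at 8.05, exceeded the highest GFP-negative array by little. The difference was 0.32 ± 0.15 (95% interval -0.02 to 0.67, limma adjusted p = 0.60).

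Sept9 stood at 7.41, 6.43 and 7.53 in GFP-positive arrays, against 7.38, 7.02 and 7.30 in GFP-negative arrays. GFP-positive array 2 was well below the other 5 arrays, and GFP-negative array 2 was the lowest of its group. The difference was -0.11 ± 0.27 (95% interval -0.71 to 0.49, limma adjusted p = 0.96). Without GFP-positive 2 it was 0.23 (limma adjusted p = 0.79), so the sign of this uncalled difference rested on that array.

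Chmp4b encodes the ESCRT-III subunit that forms the constricting filament, and Tsg101 encodes an ESCRT-I subunit that in human cells helps to bring ESCRT-III to the midbody. Chmp4b stood at 8.23, 8.09 and 8.14 in GFP-positive arrays, against 8.08, 8.10 and 8.27 in GFP-negative arrays. The groups overlapped, with a difference of 0.01 ± 0.13 (limma adjusted p = 0.997) and a 95% interval of -0.30 to 0.31, which leaves room for 1.24-fold either way. Tsg101 stood at 7.06, 7.07 and 7.57 in GFP-positive arrays, against 7.19, 6.71 and 7.16 in GFP-negative arrays. These groups overlapped as well, with a difference of 0.21 ± 0.20 (limma adjusted p = 0.87, 95% interval -0.23 to 0.65), and a further Tsg101 probe set gave 0.00 ± 0.16 (limma over all probe sets, adjusted p = 0.998).

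**Figure D2:**
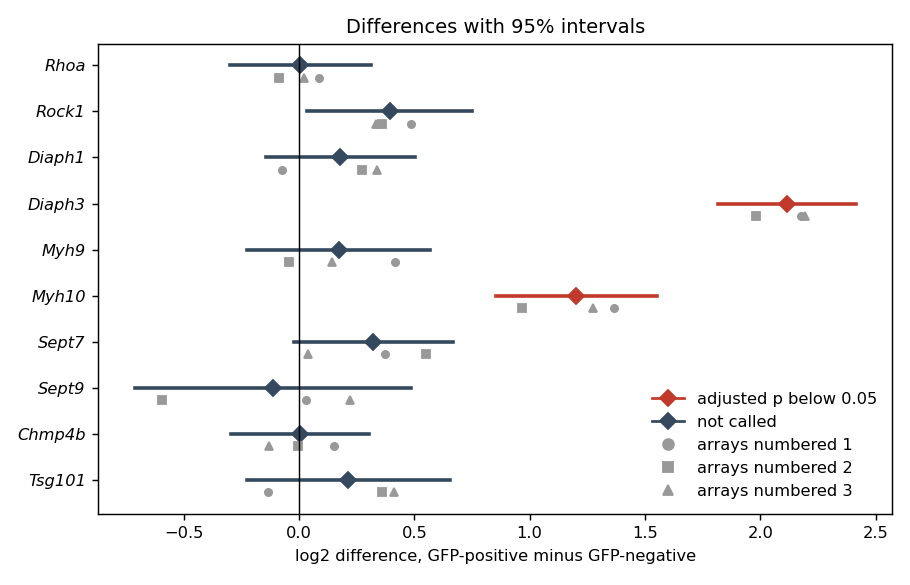
Log2 difference, GFP-positive minus GFP-negative (horizontal axis), of the 10 genes, with diamonds for the limma estimate, bars for its 95% interval and grey symbols for the difference between arrays of the same number. The intervals of Diaph3 (1.82 to 2.42) and Myh10 (0.85 to 1.55) lie apart from those of the other 8 genes, of which that of Rock1 alone excludes 0.

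Whether relatives differed in their response was tested on the within-array difference between their probe sets, whose own sign carries no meaning because probe sets differ in brightness. Diaph3 minus Diaph1 was -0.36, -0.39 and -0.40 in GFP-positive arrays, against -2.61, -2.09 and -2.26 in GFP-negative arrays, a measured shift of 1.94. Since the GFP-negative Diaph3 values lay under the array medians, the shift is given as a bound of at least 1.53. For this bound such values were set to the medians first. With 16 added before log2 instead, the shift was 1.34. Myh10 minus Myh9 was 0.10, 0.52 and 0.10 in GFP-positive arrays, against -0.85, -0.49 and -1.03 in GFP-negative arrays, a shift of 1.03. The groups did not overlap in either pair. The two-sided exact permutation p was 0.1 for each, the smallest that 3 against 3 arrays allow, and 0.15 adjusted over the 3 pairs, so neither could pass 0.05 in this design.

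Sept9 minus Sept7 was -0.87, -2.08 and -0.53 in GFP-positive arrays, against -0.52, -0.94 and -0.71 in GFP-negative arrays, a shift of -0.43 (exact permutation p = 0.6, adjusted 0.6). Here the groups overlapped. Without GFP-positive 2 the shift was 0.03. The formin and myosin pairs kept their direction without any single array. The shifts were then 0.89 to 1.18 for the myosins, and the bounds 1.42 to 1.59 for the formins. The myosin shift fell to 0.76 when the probe sets of each gene were averaged, and to 0.81 with 16 added before log2. Quantile normalization gave 1.07, and leaving out both arrays of number 2 gave 1.04.

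**Figure D3:**
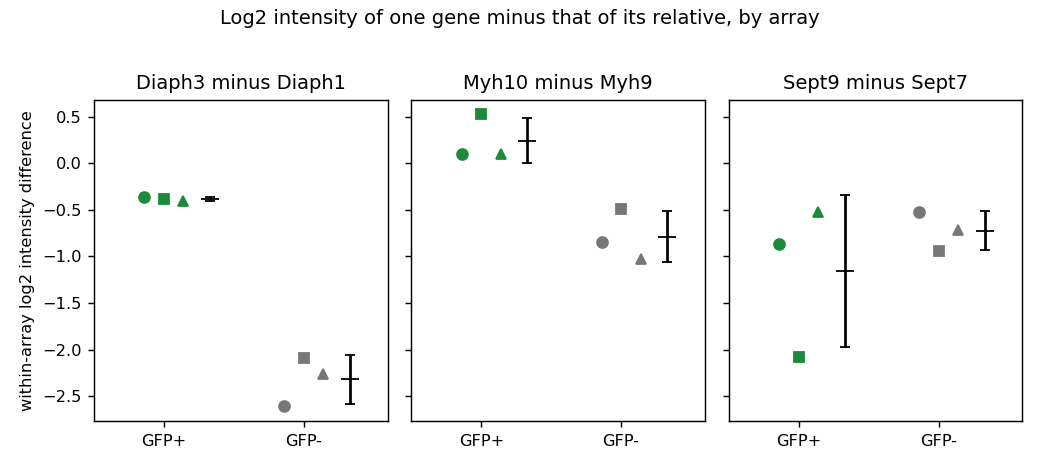
Within-array log2 intensity difference between 2 related genes (vertical axis) in GFP-positive (green, left) and GFP-negative (grey, right) arrays, with bars for mean ± SD of 3 arrays and symbols for replicate numbers 1 (circle), 2 (square) and 3 (triangle). The groups lie apart for Diaph3 minus Diaph1 and Myh10 minus Myh9 and overlap for Sept9 minus Sept7.

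The general machinery was then set beside a list of 20 genes chosen for roles in cytokinesis or at the central spindle. This choice, too, was made with earlier results of these data known. The list is named dedicated cytokinesis regulators, but roles of its genes elsewhere in mitosis were not separated. Of these 20 regulators, 18 were called higher (90.0%, against 1.55% of all genes) and none lower, with a measured median log2 difference of 3.02. In 12 of the 20 the GFP-negative mean lay under the array medians, and the median was 2.63 with values below the median of their array set to it. The sort used a reporter that carries the name of a mitotic cyclin, and its part in this count was not tested. Ect2, which encodes the exchange factor that activates RhoA at the equator, stood at 8.76, 8.40 and 8.72 in GFP-positive arrays, against 4.98, 4.62 and 5.41 in GFP-negative arrays, with a difference of 3.63 ± 0.21 (limma adjusted p = 9.0e-06). No test compared this difference with that of Rhoa. Anln, which encodes the ring scaffold anillin, had a measured difference of 4.07 ± 0.17 (at least 8.31-fold higher, limma adjusted p = 1.3e-06). Prc1, the gene of a central spindle bundler, was at least 13.3-fold higher (measured difference 4.71 ± 0.15, limma adjusted p = 1.1e-06), its GFP-negative values also lying under the array medians. Shcbp1, the gene of a midbody protein, had a difference of 4.09 ± 0.18 (limma adjusted p = 1.9e-06), at least 16.9-fold with its 1 value below an array median raised to it.

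The 2 regulators that were not called were Cit, which encodes citron kinase, which acts at the midbody (-0.11 ± 0.17, limma adjusted p = 0.93), and Iqgap3, which encodes a scaffold protein (0.51 ± 0.15, limma adjusted p = 0.20). Both groups of Cit averaged below the array medians. With values below the array medians raised to them, the called regulators were at least 3.39-fold (Kif23, a central spindle kinesin) to at least 16.9-fold (Shcbp1) higher. Beside these stand at least 3.26-fold for Diaph3 and 2.30-fold for Myh10. The bounds are point estimates after that step, depend on the floor chosen, carry no sampling error and set no order between genes.

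Another 4 lists held further genes of the general machinery, chosen by function with earlier results of these data known. Together they had 99 measured genes, of which 1 was called higher (1.01%, against 1.55% of all genes) and none lower, with a median difference of 0.01. The called gene was Cntrl, which encodes centriolin, a centrosomal protein that anchors vesicle tethers at the midbody. Cntrl stood at 6.09, 6.54 and 6.83 in GFP-positive arrays, against 5.29, 5.53 and 5.51 in GFP-negative arrays, and was 2.06-fold higher (1.04 ± 0.19, limma adjusted p = 0.027). The groups did not overlap. The call held without GFP-positive 1 but was lost when any of the other 5 arrays was left out (limma adjusted p = 0.063 to 0.13). It was also lost with 16 added before log2 (limma adjusted p = 0.085) and without both arrays of number 2 (0.14).

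No gene was called among 29 myosin II, actin and cross-linker genes (median 0.02), 15 septins and Cdc42 effector partners (0.15) or 33 ESCRT and abscission genes (-0.05), and 1 of 22 genes of midbody membrane traffic was (0.00). At an unadjusted p below 0.05 these lists held 2, 2, 2 and 3 genes, 9 of the 99 (9.09%), which is near the 8.8% of all genes. The largest differences of the 3 lists without a call were as follows. Flna, the gene of the actin cross-linker filamin A, was at 0.61 ± 0.14 (limma adjusted p = 0.077), with its GFP-negative arrays under their medians. With values below the array medians raised to them, Flna was 1.03-fold higher, so the size of its difference is not settled. Septin10, a further septin gene, was at 0.71 ± 0.18 (limma adjusted p = 0.13), and Vps28, of the ESCRT-I complex, at -0.46 ± 0.23 (limma adjusted p = 0.63).

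**Figure D4:**
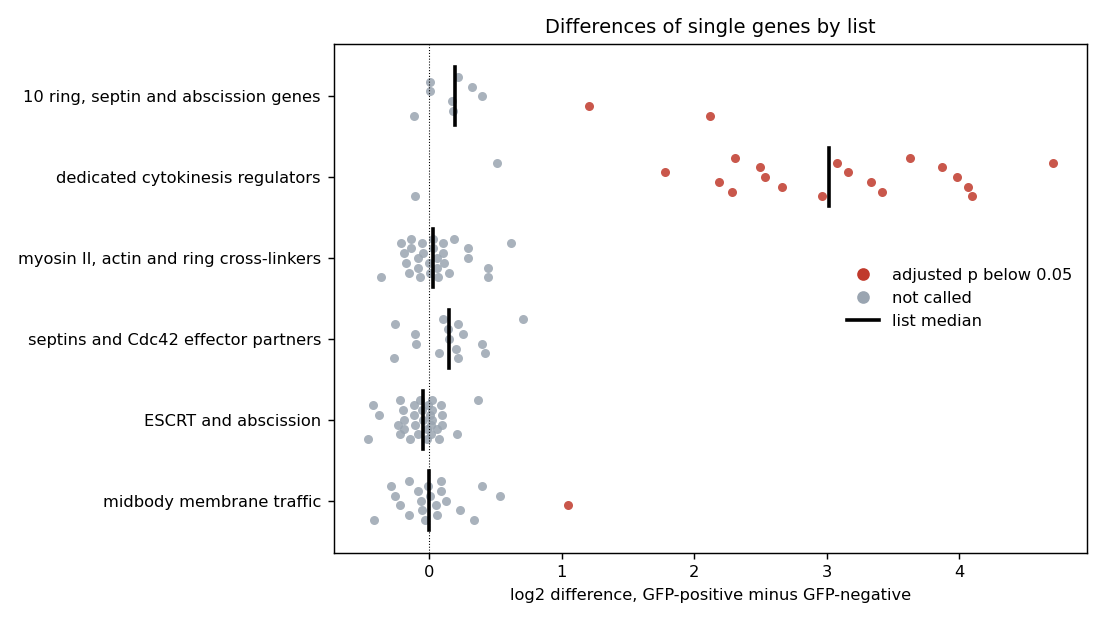
Log2 difference, GFP-positive minus GFP-negative (horizontal axis), of single genes (points, red where called) by list, with black lines for list medians. The dedicated regulators lie around a measured median of 3.02, and the 4 lists of general machinery around medians of -0.05 to 0.15 with 1 called gene, while the 10 genes hold 2 called ones.

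The fractions were checked against marker genes. All 10 proliferation genes were called higher (measured median difference 4.21, or 3.92 with values below the array medians raised to them). The condensin gene Ncapg had the largest measured difference of these, 4.57, but its GFP-negative values lay under the array medians and its fold is at least 14.9. None of 12 hepatocyte markers was called, and their summed linear intensity was 56682 to 61998 in GFP-positive and 62338 to 66222 in GFP-negative arrays. Since non-muscle myosins, formins and septins are abundant in cells other than hepatocytes, 9 further lists with 81 measured markers of other cell types were read, and 0 of the 81 were called higher, beside 1.55% of all genes, so that this count is near the background. Clec4f, of Kupffer cells, was called lower (-0.68 ± 0.13, limma adjusted p = 0.032), though not with the replicate block (limma adjusted p = 0.077), without any 1 array (0.070 to 0.15) or without both arrays of number 2 (0.13). Endothelial markers (none of 12 called) summed to 387 to 394 in GFP-positive and 430 to 522 in GFP-negative arrays, stellate cell and fibroblast markers (none of 12) summed to 431 to 476 in GFP-positive and 549 to 608 in GFP-negative arrays, and Kupffer markers (1 of 12) to 224 to 240 in GFP-positive and 254 to 312 in GFP-negative arrays. Erythroid markers summed to 327 to 434 in GFP-positive and 438 to 509 in GFP-negative arrays. In these 4 lists, and in the hepatocyte list, every GFP-positive array lay below every GFP-negative one. Summed over all genes, the intensity was 2622540 to 2785960 in GFP-positive and 2671880 to 2875960 in GFP-negative arrays. How often sums of other lists would lie apart was not computed, so no background stands beside these lists. The sums of the other 5 overlapped: 175 to 190 in GFP-positive and 158 to 208 in GFP-negative arrays for smooth muscle, 135 to 143 and 133 to 153 for cholangiocyte, 150 to 153 and 133 to 173 for lymphoid, 181 to 232 and 192 to 301 for neutrophil, and 81.2 to 85.9 and 77.4 to 82.0 for platelet markers. These 5 and the erythroid list had no called gene, with median differences of 0.01 (smooth muscle), -0.05 (cholangiocyte), 0.07 (lymphoid), -0.12 (erythroid), -0.13 (neutrophil) and 0.09 (platelet). None of the genes with the largest difference in the lists without a call passed: Serpina1d (-0.51, hepatocyte), Cdh5 (-0.71, endothelial), Dcn (-0.86, stellate), Des (-0.19, smooth muscle), Cftr (-0.16, cholangiocyte), Ms4a1 (0.21, lymphoid), Car1 (-0.65, erythroid), S100a8 (-0.97, neutrophil) and Itga2b (0.13, platelet). Of these, Des, Cftr, Ms4a1 and S100a8 averaged below the array medians in both groups, so the size of their differences is not settled. No marker was at 0, since the lowest intensity on any array was 1.62. Their part in the differences of the 10 genes was not tested.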

How the data were processed

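Per the submitters' processing notes, the authors made the deposited intensities with RMA, giving 1 value per probe set and array; RMA's version and settings are not given here by any source. They deposited these intensities without a log (1.62 to 15836, array medians 24.3 to 26.7), so log2 was taken, without further normalization. Array number limits the precision. Per the labels' protocols, 10 ng of total RNA per sample was amplified and biotin-labelled. Of 35512 probe sets, 21789 had 1 symbol in the platform annotation, 1621 several and 12102 none. Those with 1 were named, updated through Entrez identifiers for 21698 of them with a GRCm38.p6 gene table, which also gave the gene spans. Where a gene had several probe sets, the one with the highest mean stood for it, giving 19938 genes, with no filter on low values. No detection calls were used here.

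Groups were compared with limma 3.58.1 under R 4.3.3 (functions lmFit and eBayes, group as the single term, 4 residual and 5.44 prior degrees of freedom), with Benjamini-Hochberg adjustment over all genes at 0.05. Related genes were compared with exact permutation tests over arrays. Text names all 10 genes, for each list of related genes the 3 called genes with the largest difference (or the largest difference where none was called), for each marker list the gene with the largest difference, and other list members singled out after their values were seen (Ect2, Kif23, Cit, Iqgap3, Myh14). Of 122 symbols in the 5 lists of related genes 119 were matched, and of 114 marker symbols 104; the others were not analysed here, and a further 2 lists of related genes are not reported here. The members and lists were chosen with earlier results of these data known, as was the floor at the array medians.

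Arrays entered the fit and the permutation tests unpaired, and the replicate number was a block in 1 alternative. The design text gives 3 mice for both fractions. Xist stood at 9.80 in GFP-positive array 2 and 9.03 in GFP-negative array 2 but at 3.73 to 4.04 in the other arrays. Eif2s3y stood at 2.24 and 1.98 in these arrays of number 2 but at 6.78 to 7.31 in the others. By these sex-linked genes, both arrays of number 2 read as female and the others as male. The labels do not tie numbers to mice, and deviations from group means correlated by 0.20, 0.06 and -0.05 for numbers 1, 2 and 3. The replicate number as a block, quantile normalization, median centring, a filter on low genes, the mean of all probe sets, an intensity trend, array weights, an offset of 16 and leaving out each array were run as alternatives, and leaving out both arrays of number 2 was added after the data were seen. Python 3.11.15, pandas 2.3.3 and matplotlib 3.10.9 served for tables and plots.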

Additional observations from a re-analysis of the deposited data

How the results depend on the processing

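Diaph3 and Myh10 were called higher, and none of the other 8 genes was called, under all 15 alternatives. Over these, the measured difference of Diaph3 ran from 1.49 (with 16 added before log2) to 2.18, with an adjusted p of at most 0.00047, and that of Myh10 from 0.96 to 1.32, with an adjusted p of at most 0.017. With the replicate block, the adjusted p was 7.8e-05 for Diaph3 and 0.0045 for Myh10, the block changed no call among the 10 genes, and 327 genes were higher and 28 lower, beside 310 and 23 without it. The 18 called dedicated regulators numbered 18 under every alternative. The median difference of the 10 genes, 0.20, was 0.15 with quantile normalization, 0.25 with the mean of all probe sets and 0.23 with array weights, and 0.10 to 0.29 without single arrays. The count of all genes lower, 23, was 12 with arrays centred on their medians, 53 with array weights, 9 without both arrays of number 2, and 6 to 29 without single arrays; the cause was not tested. The signs of the uncalled Rhoa, Sept9 and Chmp4b changed between alternatives. The exact permutation test of related genes could not give a p below 0.1. Values under the array medians, as those of Diaph3 in GFP-negative cells, limit how large a fold can be stated.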
